A study of Gallus gallus with 32 samples.

Results

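HSPA5, HERPUD1, CRELD2, ERO1A and SEC61B encode proteins of the endoplasmic reticulum (ER), the compartment in which secreted and membrane proteins enter the secretory route and fold. They were followed in the anterior pituitary gland of chickens through every probe that carried 1 of these 5 symbols in the platform's probe table. That gave 11 probes, of which 10 could be tested, beside 14568 tested probes and 5706 named genes on the whole array. The set of 5 was selected on measured ratios of these arrays, and its probes were then chosen by symbol alone. Which contrast led to the selection is not recorded, so every contrast counts as used. The tests below therefore describe where the probes stand among all probes and are not independent evidence.

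Glands were taken at 1, 3, 5 or 7 weeks of age from 2 lines of chickens, Fat and Lean, which had been selected in opposite directions for abdominal fatness. The labels give all samples the same account of this selection and the same standard broiler rearing, and state neither sex nor pooling of glands. Each of the 8 groups of line and week has 4 arrays, 32 in all, described as biological replicates. Cy3 marked the amplified RNA of 1 sample per array and Cy5 marked a common pool made from all 32. Values below are log2 ratios, sample over pool, and the levels of different probes cannot be set against each other. A log2 difference of 1 is a doubling. A whole gland was measured, so fewer cells of a type and less RNA per cell cannot be told apart.

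The pituitary is a gland of secretory cells, and its hormones pass through the ER before they are stored and released. HSPA5, also called BiP, is the main Hsp70 chaperone of the ER lumen. It binds unfolded chains and the sensors of the unfolded protein response, a program that raises chaperones and disposal factors when folding lags. ERO1A supplies the oxidising power for disulfide bonds, HERPUD1 helps to send misfolded proteins to degradation, CRELD2 is an ER-resident protein induced by stress of the ER, and SEC61B is the beta subunit of the channel through which new chains enter.

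The arrays had between 14008 and 16134 usable spots of 19200, and their number limits the precision. The lean and the fat files of week 7 replicate 2 name the same scan: 54.0% of their spots had identical area and quality score, against 0.844% in the next closest pair. The line behind this scan could not be determined, so neither file entered the model and week 7 had 3 arrays per line. On fat week 7 replicate 4 the ratios sloped across the slide, with a correlation of 0.627 with slide row over spots, against at most 0.288 on the other arrays. Probes for 6 pituitary hormones were usable as a check of the tissue, with a median Cy3 signal of 10.7 (POMC) to 67.4 (PRL) times background, and none of the 6 was called different between weeks 1 and 7. The labels do not say which day each RNA was handled. The file headers name 8 days, and no day holds both week 1 and week 7 arrays.

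The probes of the 5 genes differed widely in brightness. The HSPA5 probe 22.3.3 (probes are named by grid block, row and column on the slide) had a median Cy3 signal of 92.7 times its local background, and SEC61B probe 45.1.3 one of 76.7. HERPUD1 probe 29.3.9 followed at 57.2 and SEC61B probe 43.8.4 at 53.4. The ERO1A probes were the dimmest of the 10, at 2.17 (10.18.19) and 2.72 (25.10.5), so their ratios rest on little signal. Probe 22.3.3 carried a saturation mark on 11 of the 30 arrays and 45.1.3 on 2, but some saturated pixels were present on 24 and 21 arrays, and at saturation a ratio is compressed. Another CRELD2 probe, 15.12.10, was usable on 1 array and was not tested.

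Between week 1 and week 7, as a mean of both lines, 4 of the 10 probes were called: HERPUD1 29.3.9 and both SEC61B probes were higher at week 7, and ERO1A 25.10.5 was lower. A call means an adjusted p under 0.05 from limma's moderated test with Benjamini-Hochberg adjustment over all tested probes. Among all tested probes 16% were called in this comparison, 8.99% higher and 7.02% lower. With 10 probes of 5 genes, chosen with results known, nothing is read from the difference between 4 of 10 and that background. The median change of the 10 probes was 0.27, against -0.02 over all tested probes, with 7 probes positive and 3 negative. Without fat week 7 replicate 4 the count was 1, HERPUD1 29.3.9, beside 1023 of all probes in place of 2333. It was 2 when any 1 of 14 other arrays was left out, and 6 without fat week 7 replicate 1. Over all probes the calls also fell to 1054 without lean week 7 replicate 3 and to 1398 without fat week 1 replicate 2.

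**Figure D1:**
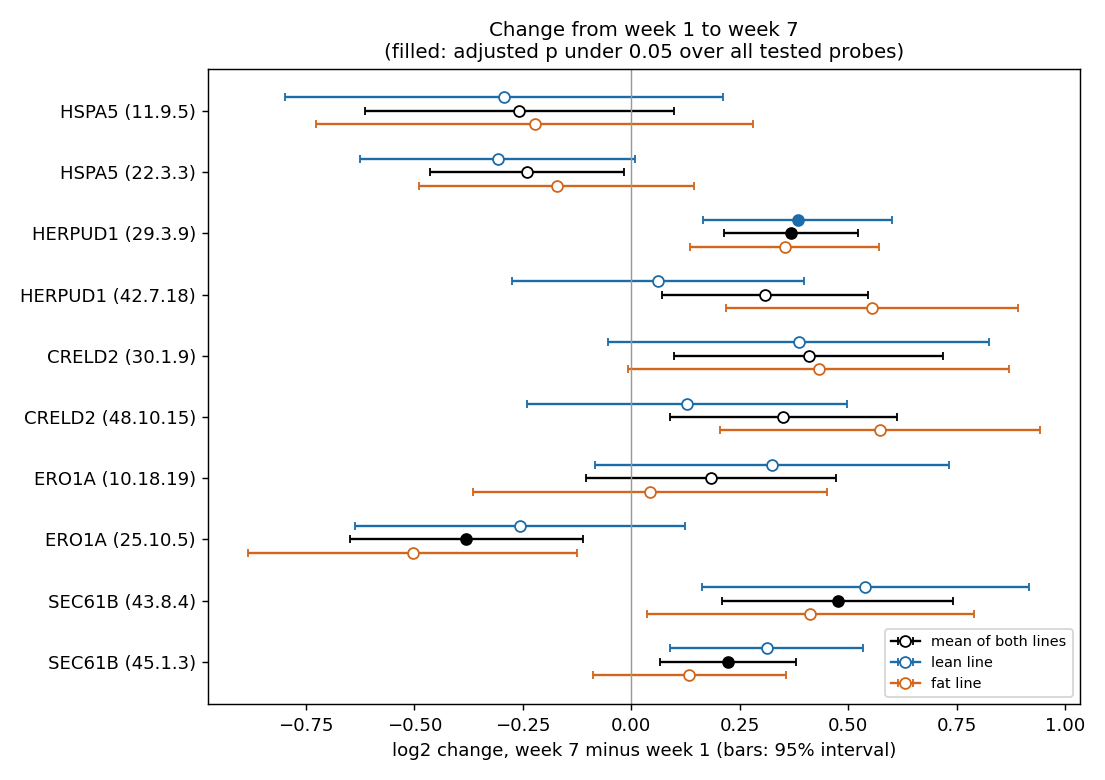
Log2 change from week 1 to week 7 for each of the 10 tested probes (horizontal axis, week 7 minus week 1), as the mean of both lines (black), in the lean line (blue) and in the fat line (orange), with 95% intervals. Filled points have an adjusted p under 0.05 over all tested probes. The HERPUD1, CRELD2 and SEC61B probes lie to the right of 0, both HSPA5 probes and ERO1A 25.10.5 to the left.

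HERPUD1, the disposal factor, showed the change with the smallest adjusted p of the 10 probes. On probe 29.3.9 the lean week 1 arrays read -0.33, -0.40, -0.53 and -0.38, and the fat week 1 arrays -0.48, -0.64, -0.37 and -0.31. At week 7 the lean arrays read 0.06, -0.15 and 0.00889, and the fat arrays -0.14, 0.00280 and -0.14. All 6 week 7 arrays lay above all 8 week 1 arrays, so that the ages did not overlap in either line. Of all tested probes, 1.61% were higher at week 7 without overlap in both lines. The change was 0.37 (SE 0.08, 1.29-fold, adjusted p = 0.00194, 30 arrays).

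The intermediate ages of this probe lay between the ends. The group means in the lean line were -0.41 ± 0.09 (SD, n = 4) at week 1, -0.27 ± 0.03 (n = 4) at week 3, -0.16 ± 0.22 (n = 4) at week 5 and -0.03 ± 0.11 (n = 3) at week 7. In the fat line they were -0.45 ± 0.15, -0.23 ± 0.05, -0.12 ± 0.12 and -0.09 ± 0.08, with the same n. Each step was positive in both lines, and no single step was called, with adjusted p values of 0.526, 1.00 and 0.582 for weeks 1 to 3, 3 to 5 and 5 to 7, where 0.515%, 0.0618% and 0% of all probes were called. The steps could also be read within the header days that hold both ages. From week 1 to 3 the differences were 0.28, 0.09 and 0.17 on 3 days, from week 3 to 5 they were 0.09, -0.03 and 0.26, and from week 5 to 7 they were 0.23 and 0.15. They were positive in 7 of these 8 comparisons. Arrays were averaged within a day without regard to line. The 0.17 set a fat week 1 array against a lean week 3 array. The first week 3 to 5 value and both week 5 to 7 values also compared unlike mixes of lines, so line and age are not separated there. With header day blocked in the model, the change from week 1 to 7 was 0.48 (SE 0.15), with an adjusted p of 0.213, and no probe of the whole array was called there.

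Within lines HERPUD1 29.3.9 was called in the lean line at 0.38 (SE 0.11, adjusted p = 0.0351), where 5.25% of all probes were called. In the fat line the change was 0.35 (SE 0.11, adjusted p = 0.0634), where 3.16% were. The difference between the lines in this change was not detectable, as the test of line by age gave an adjusted p of 1.00. The shared scan, left out above, read 0.21 in both files, above every week 7 array of the model. The dimmer HERPUD1 probe, 42.7.18, was not called, with a change of 0.31 (SE 0.12, adjusted p = 0.0677). On it the fat week 7 arrays read 0.43, 0.24 and 1.06 and the lean ones 0.09, 0.06 and 0.08, so that the highest value came from fat week 7 replicate 4, the array that slopes. Without that array the change on 42.7.18 was 0.19. Over the 30 arrays, which share the pool, both probes correlated at 0.38.

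**Figure D2:**
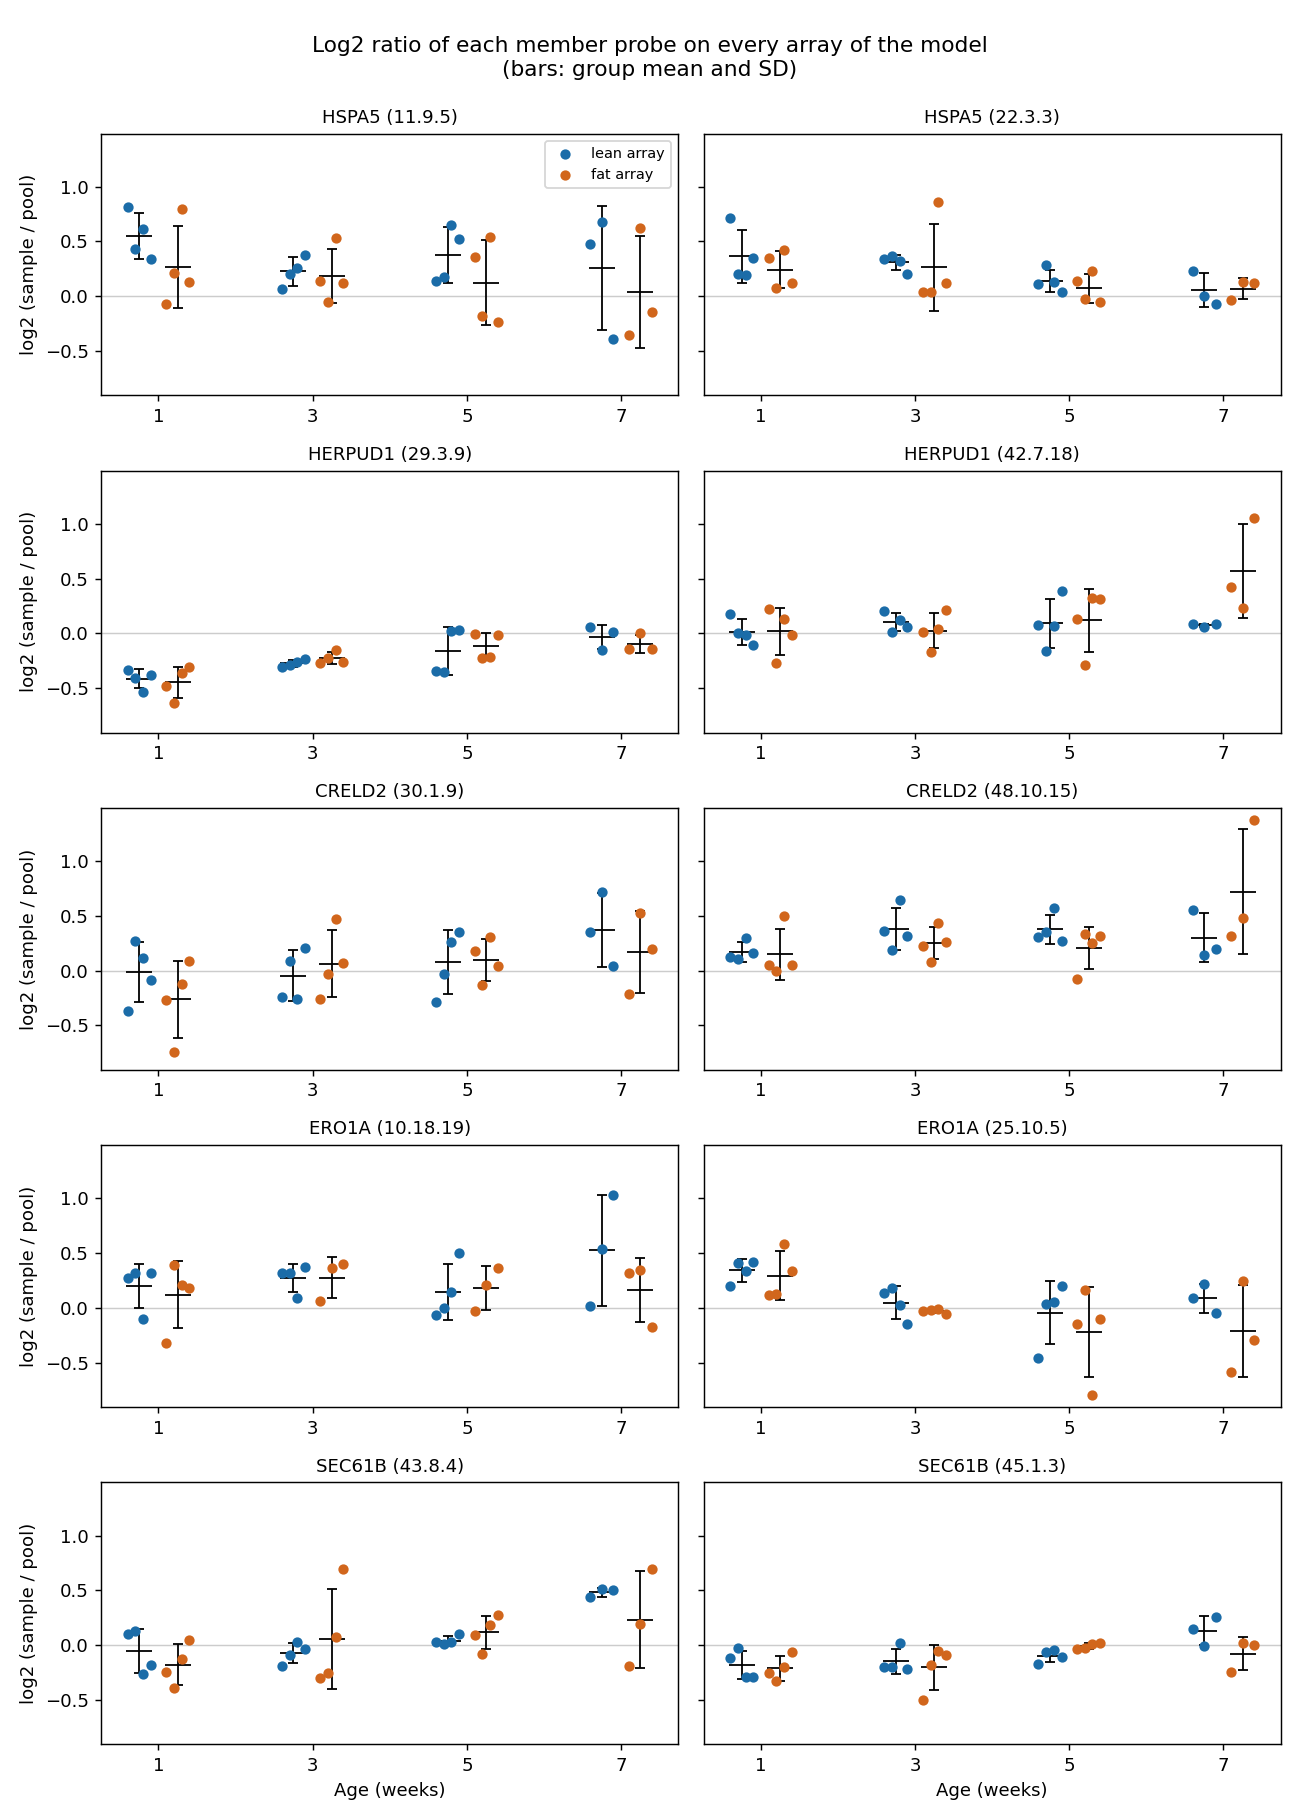
Log2 ratio of sample over pool (vertical axis) on each of the 30 arrays of the model by age in weeks, for the 10 tested probes, with lean arrays in blue, fat arrays in orange and bars for the group mean and SD. HERPUD1 29.3.9 moves from -0.41 and -0.45 at week 1 to -0.03 and -0.09 at week 7, and the highest points of HERPUD1 42.7.18 and CRELD2 48.10.15 at week 7 are the same fat array.

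SEC61B, the channel subunit, was called on both of its probes. On 43.8.4 the lean week 7 arrays read 0.44, 0.51 and 0.51, above all 4 lean week 1 arrays at 0.11, 0.12, -0.27 and -0.18. The fat week 7 arrays read -0.19, 0.19 and 0.70, and the fat week 1 arrays -0.25, -0.39, -0.13 and 0.05. On the arrays of the model the lean ages therefore did not overlap, while the fat ages did. The lean ages did not overlap in the upward direction on 11.3% of all tested probes. The change was 0.48 (SE 0.13, 1.39-fold, adjusted p = 0.0155, 30 arrays). Without fat week 7 replicate 4 it was 0.36 with an adjusted p of 0.0802, and the call ended.

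On the brighter SEC61B probe, 45.1.3, the change was smaller, 0.22 (SE 0.08, 1.17-fold, adjusted p = 0.0475, 30 arrays). The 8 week 1 arrays ran from -0.33 to -0.03 with a median of -0.23, and the 6 week 7 arrays from -0.25 to 0.25 with a median of 0.00907. Over both lines the ages overlapped, and among the lean arrays of the model they did not. When 1 array at a time was left out, the call held in 7 of 30 cases, with adjusted p values of 0.0195 to 0.120. The shared scan read -0.06 in both files on this probe and 0.00978 and 0.00892 on 43.8.4. That is within the range of the other week 7 arrays of both lines. It is also below every lean week 7 array of the model, the lowest at -0.00464 here and 0.44 on 43.8.4. The highest lean week 1 arrays, at -0.03 and 0.12, also lay above it. If the scan is lean, the lean ages overlap on both probes. Both SEC61B probes correlated at 0.76 over the 30 arrays, the closest match of a pair for the same gene, and at 0.66 after the group means were taken off.

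CRELD2, the stress-induced ER protein, had changes of similar size on both tested probes, and neither was called. Probe 30.1.9 changed by 0.41 (SE 0.15, adjusted p = 0.0627) and 48.10.15 by 0.35 (SE 0.13, adjusted p = 0.0585). On 30.1.9 week 1 ran from -0.75 to 0.27 with a median of -0.10 over 8 arrays, and week 7 from -0.22 to 0.72 with a median of 0.27 over 6. The spread within ages was as large as the change. On 48.10.15 the fat week 7 arrays read 0.31, 0.48 and 1.38, the last again fat week 7 replicate 4. The lean week 7 arrays read 0.56, 0.14 and 0.20, against 0.12, 0.10, 0.30 and 0.16 at week 1. Without that fat array the change of 48.10.15 was 0.19, and the change of 30.1.9 kept its direction whichever array was left out, at 0.32 to 0.51. The probes correlated at 0.21 over the arrays.

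ERO1A, the disulfide oxidase, had 2 dim probes that moved in opposite directions. Probe 25.10.5 was lower at week 7 by -0.38 (SE 0.13, adjusted p = 0.0475, 30 arrays). Its lean week 1 arrays read 0.20, 0.41, 0.33 and 0.42 and its fat week 1 arrays 0.12, 0.13, 0.59 and 0.34. At week 7 the lean arrays read 0.09, 0.22 and -0.05 and the fat arrays -0.58, 0.25 and -0.30, so that week 7 was lower on most arrays and the ages overlapped. The largest step came between weeks 1 and 3, at -0.31 (SE 0.12, adjusted p = 0.537). When 1 array at a time was left out, the call of 25.10.5 held in 6 of 30 cases, with adjusted p values of 0.0105 to 0.120. Probe 10.18.19, usable on 28 arrays, changed by 0.18 (SE 0.14, adjusted p = 0.368). The correlation between both ERO1A probes was 0.07, and the direction for this gene differs with the probe.

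HSPA5, the chaperone, was the only gene of the 5 with both probes lower at week 7, and neither was called. Probe 11.9.5 changed by -0.26 (SE 0.17, adjusted p = 0.302) and the brighter 22.3.3 by -0.24 (SE 0.11, adjusted p = 0.126). On 22.3.3 the 8 week 1 arrays ran from 0.07 to 0.71 with a median of 0.27, and the 6 week 7 arrays from -0.07 to 0.23 with a median of 0.06. The ranges overlapped, and 3 week 1 arrays and 2 week 7 arrays were saturated there. With the saturated spots left out, 22.3.3 could not be tested. On 11.9.5, which was saturated on none of the 30 arrays, the 6 week 7 arrays spread from -0.39 to 0.68, wider than the change. The 95% interval of the change was -0.62 to 0.10 on 11.9.5 and -0.46 to -0.02 on 22.3.3. Both HSPA5 probes correlated at 0.50 over the arrays.

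No probe of the 5 genes was called between the lines in this model. For fat minus lean over the 4 ages, 0 of the 10 probes were called by limma and 0 had an unadjusted p under 0.05. Of all 14568 tested probes 0.686% were called, and 2337 had an unadjusted p under 0.05. The differences ran from -0.20 for HSPA5 11.9.5 (SE 0.12, adjusted p = 0.392) to 0.11 for HERPUD1 42.7.18 (SE 0.08, adjusted p = 0.460). The narrowest 95% interval was that of HERPUD1 29.3.9, from -0.11 to 0.10 around a difference of -0.00261. The widest was that of HSPA5 11.9.5, from -0.44 to 0.04, which leaves room for a lower level in fat birds of up to that size. Of the 10 probes 8 had a negative sign.

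At single ages no probe of the 5 genes passed the adjusted threshold between the lines. At weeks 1, 3 and 5 none of the 10 probes was called and none had an unadjusted p under 0.05. None of the 14568 probes of the array was called at these ages, and 537, 465 and 558 had an unadjusted p under 0.05. At week 7, where 0.0206% of all probes were called, 0 of the 10 were. There 3026 of the 14568 probes had an unadjusted p under 0.05, and 2 of the 10 were among them. The 2 were HERPUD1 42.7.18, at 0.50 (SE 0.18, adjusted p = 0.141), and CRELD2 48.10.15, at 0.42 (SE 0.19, adjusted p = 0.214), both highest on fat week 7 replicate 4. Their 95% intervals were 0.14 to 0.86 and 0.03 to 0.82. The F test of line by age called 0 of the 14568 probes, with 634 at an unadjusted p under 0.05 and 0 of the 10 among them. The F test for any change with age called HERPUD1 29.3.9 alone of the 10 (adjusted p = 0.00832), where 5.49% of all probes were called.

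In the order of the 8 groups by mean, the lowest and the highest group differed in week for all 10 probes. Each group shares its week with only 1 other group, so most pairs of groups differ in week. The share of all tested probes with such an order is not given here, and nothing is read from the count. HERPUD1 29.3.9 was lowest in fat week 1 and lean week 1 and highest in lean week 7 and fat week 7. CRELD2 30.1.9, both SEC61B probes and ERO1A 10.18.19 also ran from fat week 1 to lean week 7. HSPA5 22.3.3 ran the other way, from lean week 7 at 0.06 to lean week 1 at 0.36. For 7 of the 10 probes no neighbouring groups in this order differed by more than the probe's residual SD, which was 0.14 to 0.32 over the 10 probes.

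The position of a spot on the slide moved with the change from week 1 to week 7. The median change of all tested probes ran from -0.35 in grid block 1 to 0.20 in block 48, and to 0.23 in block 40. In blocks 1 to 24, 4.28% of probes were called higher and 12.1% lower, against 13.5% and 2.16% in blocks 25 to 48. Without fat week 7 replicate 4 these shares were 3.40% and 3.12% in blocks 1 to 24 and 6.58% and 1.16% in blocks 25 to 48. All 6 tested probes of HERPUD1, CRELD2 and SEC61B lie in blocks 29 to 48, and both HSPA5 probes in blocks 11 and 22. ERO1A 10.18.19 lies in block 10 and changed by 0.18, and 25.10.5 lies in block 25 and changed by -0.38. The own blocks of HERPUD1 29.3.9, CRELD2 30.1.9 and SEC61B 45.1.3 had median changes of -0.04, -0.01 and -0.02. In them 4.44%, 7.38% and 6.94% of probes were called higher. Rows within the blocks differed as well: in rows 1 to 3, 14.8% of probes were called higher, against 7.75% in rows 4 to 20. HERPUD1 29.3.9, CRELD2 30.1.9 and SEC61B 45.1.3 lie in rows 3, 1 and 1.

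**Figure D3:**
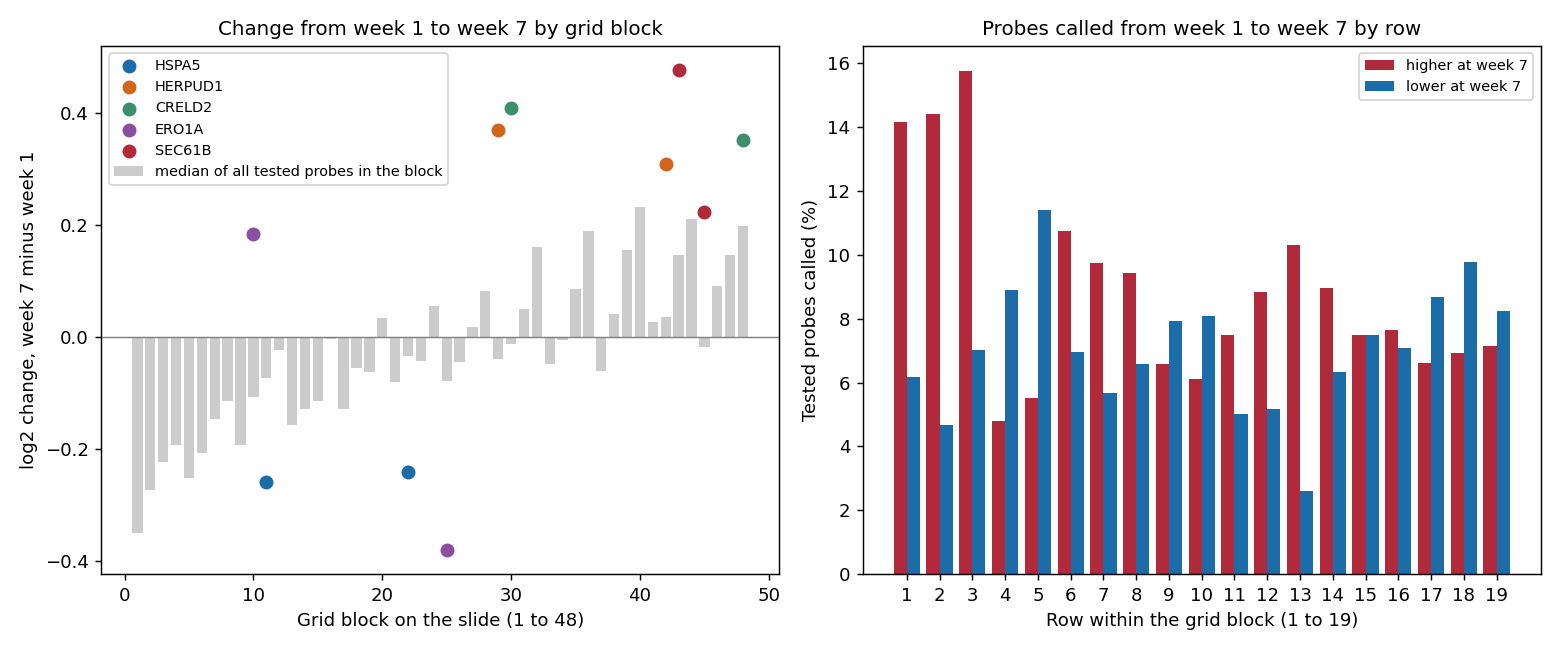
Left, log2 change from week 1 to week 7 by grid block, as the median of all tested probes of a block (grey bars) and as the value of each of the 10 probes (points). Right, percent of tested probes called higher (red) or lower (blue) at week 7 by row within the block, with row 20, which holds 8 tested probes, not drawn. The grey bars run from -0.35 in block 1 to 0.20 in block 48, and rows 1 to 3 hold the most upward calls.

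Set against the median of its own block, HERPUD1 29.3.9 was higher at week 7 by 0.41, and SEC61B 43.8.4 and 45.1.3 by 0.33 and 0.24. CRELD2 30.1.9 stood 0.42 above its block, HERPUD1 42.7.18 0.27 and CRELD2 48.10.15 0.15. With a loess curve fitted per grid block and each row centred, HERPUD1 29.3.9 changed by 0.25 (adjusted p = 0.0307) and SEC61B 43.8.4 by 0.39 (adjusted p = 0.0297). SEC61B 45.1.3 then changed by 0.08 (adjusted p = 0.579) and ERO1A 25.10.5 by -0.36 (adjusted p = 0.0747), so that both calls ended, while HSPA5 22.3.3 passed at -0.33 (adjusted p = 0.0499). With fat week 7 replicate 4 left out as well, HERPUD1 29.3.9 was the only one of the 10 probes called, at 0.27 (adjusted p = 0.0402), and HSPA5 22.3.3 was at -0.35 (adjusted p = 0.0755).

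HERPUD1 29.3.9 was the steadiest of the calls over the settings run. It was called in 54 of 55 other settings, among them all 30 in which 1 array was left out, with changes of 0.25 to 0.48, and the exception was the model with header day blocked. The fit of only the groups compared is not counted among these settings. In the authors' deposited table of ratios the change of HERPUD1 29.3.9 was 0.42 (adjusted p = 0.000848), and SEC61B 45.1.3 was at 0.30 there (adjusted p = 0.0144). That table was tested with a lower minimum of usable arrays, on 10756 probes. Per array, its ratios correlated with those used here at 0.382 to 0.646, with a median of 0.606. SEC61B 43.8.4 was at 0.25 in the authors' deposited table (adjusted p = 0.217) and lost its call, and neither ERO1A probe had enough values there to be tested. SEC61B 43.8.4 was called in 47 of 55 settings, ERO1A 25.10.5 in 17 of 54 and SEC61B 45.1.3 in 16 of 55. CRELD2 30.1.9 and 48.10.15 were each called in 6 of 55, HERPUD1 42.7.18 in 3 of 55 and HSPA5 22.3.3 in 1 of 54. None of the 10 probes changed sign between weeks 1 and 7 in any of these settings.

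**Figure D4:**
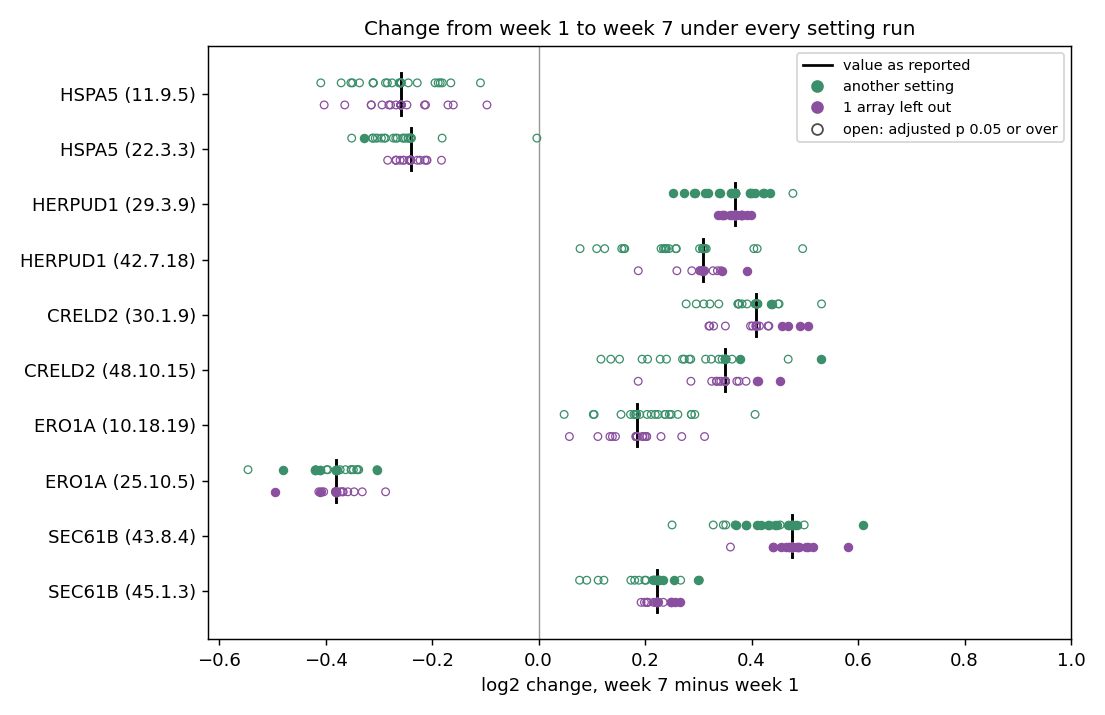
Log2 change from week 1 to week 7 (horizontal axis) of each of the 10 tested probes under the settings run, with the reported value as a black line, other settings in green and single arrays left out in purple. The fit of only the groups compared is not drawn. Filled points have an adjusted p under 0.05. HERPUD1 29.3.9 stays filled from 0.25 to 0.44 and is open at 0.48, where header day was blocked.

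The genes with ratios most like each of the 5, by Pearson correlation over the 30 arrays among 5705 other genes, are a description, since all arrays share the pool and the slide layout. KLHL14, a BTB and kelch domain protein, was nearest to HERPUD1 29.3.9 at 0.869, before the serotonin receptor gene HTR1B at 0.862 and SESTD1 at 0.854. For SEC61B 45.1.3 the nearest were POLDIP2 (0.80), CYP20A1 (0.776) and the splicing factor SRSF3 (0.773). For CRELD2 30.1.9 they were the translation factor subunit EIF3J (0.795), HNRNPM (0.791) and again CYP20A1 (0.765). All of these probes lie in rows 1 to 3 of their blocks, as do the 3 member probes themselves. Of the 100 genes nearest to HERPUD1 29.3.9, 66 lie in rows 1 to 3, and 67 of those nearest to SEC61B 45.1.3 and 63 of those nearest to CRELD2 30.1.9, against 21.3% of all genes. The part of the row in this likeness was not tested.

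For HSPA5 and ERO1A the nearest genes were less close, and of these 6 genes 1, EIF4A2, lies in rows 1 to 3. CORO7 (0.624), the helicase EIF4A2 (0.605) and CXorf57 (0.583) were nearest to HSPA5 22.3.3. HS3ST1 (0.706), the phosphoglycerate kinase PGK2 (0.659) and HPD (0.651) were nearest to ERO1A 25.10.5. The nearest 100 genes of these probes held 15 and 22 in rows 1 to 3. Among the 5 genes themselves, HERPUD1 29.3.9 correlated with SEC61B 45.1.3 at 0.64 and with CRELD2 30.1.9 at 0.61, and with HSPA5 22.3.3 at -0.27. After the group means were taken off, these values were 0.41, 0.44 and 0.18, so that the sign with HSPA5 turned. The other HERPUD1 probe, 42.7.18, correlated with the same 3 probes over the arrays at 0.22, 0.24 and -0.05.

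The wider ER system was read from 7 lists with 202 genes, 125 of them measured, each by its brightest probe. From week 1 to week 7, 7 of these genes were called higher and 7 lower, where 9.45% and 8.22% of all 5706 genes were, 17.7% in all. No list had more than 3 called genes in 1 direction. The lists hold the 5 genes themselves, with HERPUD1 and SEC61B among those called higher and ERO1A among those called lower. Over the 4 ages 0 of the 125 were called between the lines, where 0.473% of all genes were called, with differences of -0.36 to 0.29.

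Of the chaperones and folding enzymes 20 of 34 were measured, with 0 called higher and 3 lower, a median of -0.11 against -0.03 over all genes, and 15 of 20 negative. These counts take the brightest probe of each gene. TXNDC5 was at -0.06 on that probe and not called, while its other 2 probes were both called, at -0.95 and 1.52. HYOU1, an Hsp110-type exchange factor for HSPA5, changed by -0.36 (SE 0.12, adjusted p = 0.0333), while its other 2 probes were at 0.04 and 0.26 and not called. On the called HYOU1 probe the lean week 7 arrays ran from -1.13 to -0.18. ERP44, which retains ERO1 enzymes in the ER, changed by -0.46 (SE 0.15, adjusted p = 0.0332). Its fat week 7 arrays spread from -1.31 to 0.15. ERO1A itself was the other gene called lower. The ERP44 probe lies in block 1, where 30.9% of probes were called lower.

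Of the degradation factors 15 of 28 were measured, with 2 called higher, 2 lower and a median of 0.12. Beside HERPUD1, NPLOC4, a cofactor of the VCP segregase, was higher at 0.45 (SE 0.13, adjusted p = 0.0244), with its other probe at -0.12. HERPUD2, the paralog of HERPUD1, was lower at -0.40 (SE 0.10, adjusted p = 0.00708). DERL2, a derlin of the ER membrane, was lower at -0.45 (SE 0.15, adjusted p = 0.0387), with its other probe at -0.17. On the called DERL2 probe the fat week 7 arrays spread from -1.51 to -0.05. HERPUD1 and HERPUD2 thus moved in opposite directions on this array. HERPUD2 probe 8.5.6 lies in block 8, where 16.9% of probes were called lower and 2.98% higher. HERPUD1 29.3.9 lies in block 29, with 6.03% lower and 4.44% higher, but in row 3, with 15.7% higher. The part of position in this contrast was not tested. HERPUD2 changed by -0.65 in the lean line and -0.15 in the fat line, with a lean week 7 SD of 0.47. The DERL2 probe lies in block 1, where 30.9% of probes were called lower.

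Of the sensors and transcription factors of the unfolded protein response 12 of 26 were measured, with 2 called higher, 0 lower and a median of 0.11. EIF2S1, the translation factor subunit that the sensor kinase PERK phosphorylates, rose by 0.84 (SE 0.13, adjusted p = 0.000108). Its fat and lean means at week 1 were -0.50 ± 0.36 and -0.34 ± 0.08 (SD, n = 4), and at week 7 they were 0.37 ± 0.42 and 0.45 ± 0.29 (n = 3). The other EIF2S1 probe was at -0.04 and not called. The probe that rose lies in block 48 and row 3, where 22.8% and 15.7% of probes were called higher. ATF6B, a relative of the membrane-bound factor ATF6, rose by 0.21 (SE 0.07, adjusted p = 0.0437). XBP1, named after its value was seen as the lowest of the list, was at -0.29 and not called.

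Of the signal recognition, translocon and signal peptidase genes 20 of 26 were measured, with 2 called higher, 1 lower and a median of -0.01. SEC61B was joined by TRAM1L1, the file's name for a gene whose older symbol is TRAM1, at 0.31 (SE 0.10, adjusted p = 0.0391). SRP19, a protein of the signal recognition particle, fell by 0.27 (SE 0.08, adjusted p = 0.0220). Of the N-glycosylation genes 19 of 28 were measured and 15 were negative, with a median of -0.13. TUSC3, a subunit of the oligosaccharide transferase, rose by 0.20 (SE 0.07, adjusted p = 0.0465), and the mannosyltransferase ALG3 fell by 0.39 (SE 0.11, adjusted p = 0.0151), with its other 3 probes between -0.33 and 0.29 and 1 of them called. None of the 25 measured of 37 genes of ER to Golgi traffic, and none of the 14 of 23 cytosolic and mitochondrial heat shock genes, was called, with medians of 0.01 and -0.09.

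The direction of these calls was also read by the block of the probe. All 7 list genes called higher had their probe in blocks 29 to 48, and all 7 called lower in blocks 1 to 25. The limits of both ranges were taken from these called genes. In rows 1 to 3, which hold 17.6% of all tested probes, lay 4 of the 7 called higher and 1 of the 7 called lower. In blocks 29 to 48, 14.8% of all tested probes were called higher and 1.78% lower, and in blocks 1 to 25, 4.24% and 12%. With a loess curve per grid block plus row centring, 2 list genes were called higher and 7 lower. With a loess curve per grid block and fat week 7 replicate 4 left out, without row centring, 2 were called higher and 2 lower.

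Markers of other cell types were read in the same comparison, against 9.45% of all genes called higher and 8.22% lower. Of 5 measured red blood cell genes 3 were lower, with the globins HBBA at -1.93 and HBA1 at -1.51 and the anion exchanger SLC4A1 at -0.56. The mean of this list ran from 0.33 to 0.58 on the 8 week 1 arrays and from -0.49 to -0.11 on the 6 week 7 arrays. Of the fibroblast and matrix genes 1 of 15 was higher and 3 lower, of the muscle, cartilage and bone genes 2 of 6 were lower, and of the posterior pituitary and glia genes 1 of 5 was higher and 1 lower. Of the lymphocyte and macrophage genes 1 of 10 was lower, and of the endothelial genes 1 of 6 was higher. Apart from the red blood cell, matrix and muscle lists, these counts are of 1 gene in a direction. The part of these shifts in the changes of the 5 genes was not tested.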

How the data were processed

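The authors deposited 1 file per array with spot intensity and local background in both dyes as sums over pixels and a quality score per spot (the headers name TIGR Spotfinder 2.2.4). They also deposited a table of log2 ratios whose normalization is not given in the sources used here. Spots with Spotfinder flags C, B or S in both dyes were kept. Intensities per unsaturated pixel were background-corrected (normexp, offset 50) and loess-normalized within arrays. R 4.3.3 and limma 3.58.1 fitted 1 model with a mean for each of 8 groups to 30 arrays (22 residual degrees of freedom), on probes usable on at least 24 arrays and 2 per group. Tests were two-sided with Benjamini-Hochberg adjustment over 14568 probes and a threshold of 0.05, and the code was tested on simulated data. Gene symbols are those of the platform annotation, of which the RefSeq gene table changed 0: 8775 tested probes have 1 symbol, 0 several, and 5793 none here. The members and the lists were chosen with earlier results of these data known. Named genes are all probes of the 5 genes, up to 4 called genes with the largest change and up to 2 with the largest line difference per list, and the 3 nearest genes per member. Nothing says that replicates came from separate birds beyond the word biological, so p-values measure the spread between these arrays. Sequences and genome positions are not used here. Row centring, loess per block with row centring (with and without fat week 7 replicate 4), whole spot area and leaving out saturated spots were alternatives chosen after seeing the data.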

Additional observations from a re-analysis of the deposited data

Results flagged for a closer look

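In 6 of 58 groups of 4 arrays, 1 array of a tested probe lay further from the other arrays of its group than Dixon's limit allows, and chance gives about 5% of groups. HSPA5 22.3.3 read 0.86 on fat week 3 replicate 3, where the other arrays ran from 0.04 to 0.12. CRELD2 48.10.15 read 0.50 on fat week 1 replicate 3, against -0.00548 to 0.05. ERO1A 10.18.19 read -0.10 on lean week 1 replicate 3, against 0.27 to 0.32, and 0.0871 on lean week 3 replicate 3, against 0.32 to 0.37. SEC61B 43.8.4 read 0.10 on lean week 5 replicate 4, against 0.01 to 0.02. SEC61B 45.1.3 read 0.0236 on lean week 3 replicate 3, against -0.22 to -0.20. Apart from lean week 5 replicate 4, these arrays are all replicate 3 of week 1 or week 3 and share 1 header day. None of these arrays is from week 7, where each line had 3 arrays and no such test was made.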

How the results depend on the processing

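Of 552 single values under alternatives, 475 kept direction and side of the threshold, 42 lost a call, 9 gained one and 26 changed sign. The removals of single arrays entered this count only as their lowest and highest value per probe and comparison. The 4 calls from week 1 to 7 became 0 with the header day as a block, 1 with array weights or with a loess per grid block without fat week 7 replicate 4, with or without row centring, and 2 with a loess per grid block, median centring, scale normalization, the authors' table or only the groups compared. They ranged from 1 to 6 with arrays left out: 1 without fat week 7 replicate 4, 2 in 14 of 30 cases, 6 without fat week 7 replicate 1. The 1 call within lines ranged from 0 to 4 with arrays left out. It was 0 with the header day, median centring, scale normalization, row centring, a loess per grid block and row centring (with or without fat week 7 replicate 4) or only the groups compared. It was 2 with all 32 arrays, lean week 7 replicate 2 alone left out, the replicate block, probes usable on every array or whole spot area, and 3 in the authors' table. The 1 call for any age was 0 with the header day, 0 with row centring after a loess per grid block (with or without fat week 7 replicate 4), 2 in the authors' table, and 0 to 2 with arrays left out. For the line at single weeks the 0 became 1 without fat week 7 replicate 3, so the range was 0 to 1. Of the list genes the 7 called higher became 4 with all 32 arrays, 0 with the header day, 3 with a loess per grid block, median centring or the authors' table, and 2 with a loess per grid block without fat week 7 replicate 4 or with row centring. The 7 called lower became 0 with the header day, 11 with median centring, 2 with a loess per grid block without fat week 7 replicate 4, and 4 in the authors' table or with the mean of all probes of a gene. The cause was not tested.

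The sign changed in some settings for line differences over ages, none of them called, and for no change from week 1 to 7. For HERPUD1 29.3.9 (-0.00261) the value was 0.00142 with all 32 arrays, 0.0161 with lean week 7 replicate 2 alone left out, 0.0130 with the header day as a block, 0.00198 with a loess per grid block without fat week 7 replicate 4, 0.00389 with row centring besides, 0.00301 with whole spot area, -0.0291 to 0.0128 with 1 replicate number left out (0.00609 without replicate 2) and -0.0185 to 0.0132 with single arrays left out. For CRELD2 48.10.15 (0.02) it was -0.00145 with all 32 arrays, -0.00749 with lean week 7 replicate 2 alone left out, -0.0352 with a loess per grid block without fat week 7 replicate 4, -0.0104 with scale normalization, -0.0621 with array weights, -0.0620 in the authors' table, -0.0142 with a loess per grid block and row centring, -0.0583 with these without fat week 7 replicate 4, -0.0868 to 0.131 with 1 replicate number left out and -0.0568 to 0.0761 with single arrays left out. SEC61B 43.8.4 (-0.04) gave -0.187 to 0.0432 with 1 replicate number left out (0.0276 without replicate 2) and -0.101 to 0.00927 with single arrays left out. With 1 replicate number left out HSPA5 22.3.3 ran from -0.159 to 0.0138, CRELD2 30.1.9 from -0.134 to 0.0148 and ERO1A 10.18.19 from -0.188 to 0.00616. HERPUD1 42.7.18 (0.11) was at -0.0135 in the authors' table.

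Over all probes 2333 were called from week 1 to 7, 1023 to 3187 with single arrays left out, 1318 with all 32 arrays, 1105 with scale normalization, 939 with array weights, 563 of 10756 tested in the authors' table and 0 with the header day. Replicate numbers were not taken as pairs, since not every same-numbered pair correlated over 0.1: deviations of same-numbered arrays correlated at 0.14 on average (63 of 99 pairs over 0.1) against -0.05 for others, and 19 of 30 arrays matched their own number best. A rule that asks this of every pair is hard to meet, and the p-values of the main model take no account of the likeness. Replicate 4 of weeks 1, 3 and 5 shares 1 header day in both lines. With the replicate block 3 of the 10 probes and 2505 of all were called from week 1 to 7, ERO1A 25.10.5 losing its call (adjusted p = 0.0666), and the calls between lines over ages went from 100 to 294 with 0 of the 10 among them. The ERO1A probes, at 2.17 and 2.72 times background, carry the least signal of the 10.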
